A study of Mus musculus with 16 samples.

Results

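Chylomicrons are the particles in which the small intestine exports dietary fat. In the enterocyte, fatty acid-binding proteins carry fatty acids through the cytosol, and microsomal triglyceride transfer protein loads lipid onto apolipoprotein B. Smaller apolipoproteins join the particle surface and set how lipases and receptors later handle it, and the transcription factor CREB3L3 activates several of their genes. HNF4A, a nuclear receptor of the intestinal epithelium and the liver, is known to bind regulatory DNA of many of these genes.

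Described here are 10 mouse genes of this pathway, taken by name: Apoa1, Apoa4, Apob, Apoc2, Apoc3, Apoe, Mttp, Fabp1, Fabp2 and Creb3l3. All array probes that carry one of these symbols were used, out of 25697 probes for 17914 genes. They came to 10 probes for 9 genes, because no probe carried the symbol Apob and Apoc2 had a second one. Of these probes 8, for 7 genes, were bright enough to enter the genotype comparison. The Fabp1 and Fabp2 probes were not.

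RNA of whole small intestinal tissue was hybridised to Illumina bead arrays, with 1 array for each of 16 mice. The 8 Hnf4aKO mice carried loxP-flanked Hnf4a alleles (Hnf4a fl/fl) and VillinCreERT2, a tamoxifen-inducible Cre recombinase driven by the epithelial villin promoter. The 8 Hnf4aWT mice had no Cre. The protocol gives them as Hnf4a fl/fl, whereas the genotype label reads Hnf4a+/+, so their allele is uncertain. Both groups received 1 mg tamoxifen by gavage on 5 days, 14 Gy of whole-body gamma irradiation 3 weeks later, and were killed 96 hours after that. The labels state neither age nor strain, and no unirradiated mice were analysed here.

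On each array between 46.9% and 53.1% of probes were detected, at a detection p-value under 0.05. The number at the start of each array's ID parts the arrays into 2 sets, which are taken here as 2 slides. Each held 4 arrays of each genotype. Hnf4a itself averaged 10.47 ± 0.19 log2 units in Hnf4aKO and 12.22 ± 0.16 in Hnf4aWT tissue (SD, n = 8 each), and every Hnf4aKO array lay below every Hnf4aWT array. Its difference was -1.75 (SE 0.10, limma adjusted p = 1.65e-09). The labels do not say which exons are deleted, so the Hnf4a probe may lie outside them.

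Promoter sequences are shown for Apoa1, Apoa4, Mttp and Creb3l3, whose levels varied together between arrays as described further on. Each line is the 200 bases before a start site, read 5′ to 3′ on the gene's strand, from RefSeq on GRCm38.p6. Capitals mark a match to CAAAGNNCA, a degenerate form of the HNF4 binding motif, on either strand. Creb3l3 has another start site, with the upstream bases at chr10:81098873-81099072, whose window holds no match and is not shown. Apoc2, which varied with these genes too, also has no match and is not shown.
Apoa1, chr9:46228430-46228629, plus strand: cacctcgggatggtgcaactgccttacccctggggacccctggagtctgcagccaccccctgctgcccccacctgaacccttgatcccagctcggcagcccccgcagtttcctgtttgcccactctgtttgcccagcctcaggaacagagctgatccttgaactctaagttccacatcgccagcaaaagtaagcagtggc
Apoa4, chr9:46240644-46240843, plus strand: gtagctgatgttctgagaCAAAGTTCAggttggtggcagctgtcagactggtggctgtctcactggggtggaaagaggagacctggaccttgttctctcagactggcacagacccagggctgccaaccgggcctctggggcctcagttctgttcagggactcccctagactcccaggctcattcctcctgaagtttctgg
Mttp, chr3:138143419-138143618, minus strand: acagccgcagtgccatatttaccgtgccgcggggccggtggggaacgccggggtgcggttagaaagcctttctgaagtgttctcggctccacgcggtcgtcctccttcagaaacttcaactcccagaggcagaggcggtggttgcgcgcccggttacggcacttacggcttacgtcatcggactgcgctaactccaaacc
Creb3l3, chr10:81092592-81092791, minus strand: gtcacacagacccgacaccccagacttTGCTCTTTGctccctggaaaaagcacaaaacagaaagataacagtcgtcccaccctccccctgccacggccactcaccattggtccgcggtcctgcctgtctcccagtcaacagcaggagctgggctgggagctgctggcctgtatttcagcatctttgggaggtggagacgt

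In the 300-base windows around start sites that RefSeq gives, CAAAGNNCA was found for 4 of the 9 member genes other than Apoc3, against 7.27% of 27025 genes. The matches were CAAAGTTCA beginning 182 bases upstream of Apoa4, CAAAGGGCA 103 bases upstream of Apob, CAAAGTGCA 137 bases upstream of Fabp2 and CAAAGAGCA 173 bases upstream of Creb3l3. For the last 3 the match lies on the other strand, and for Creb3l3 in 1 of its start site windows. The stricter form CAAAGTCCA, which is one of the words CAAAGNNCA covers, was found for 0 of the 9, against 0.56% of genes. A match says that these letters are in the window, and it was not tested for binding. Apoc3 has no window in the RefSeq promoter table used, so its promoter was not scanned. Of the 4 genes with a match, Apoa4 and Creb3l3 could be compared between genotypes, and neither passed the test.

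Of the 7 member genes compared, Apoc3 was higher in Hnf4aKO tissue, 2.43-fold, and none passed the test as lower. Over all 13460 probes tested with limma, 29.4% passed the threshold of an adjusted p under 0.05, 17.0% as lower and 12.4% as higher in Hnf4aKO tissue. These were 2292 lower and 1669 higher probes, and with median scaling 2369 lower and 1099 higher. At 1 of 7 higher and 0 of 7 lower, the members' share of calls was below that of the array for either direction together and close to it for increases. The Apoc3 call also depended on single arrays and on the scaling, as given with its values.

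**Figure D1:**
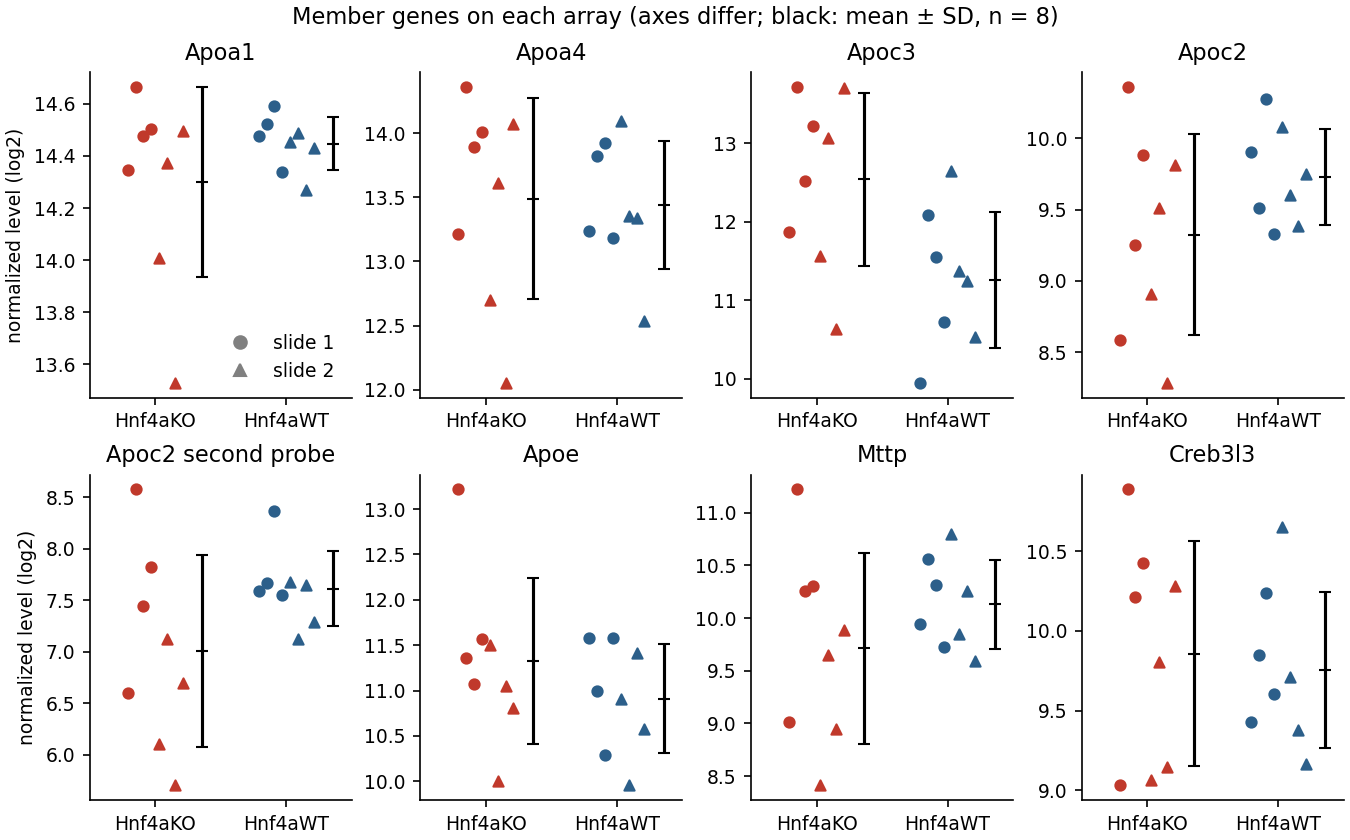
Normalized log2 level of the 8 tested member probes on every array (y axes differ and do not start at 0), with Hnf4aKO in red left of Hnf4aWT in blue, circles for slide 1, triangles for slide 2, and bars for mean ± SD (n = 8 each). Apoc3 was higher in Hnf4aKO tissue with overlapping groups, and the other probes overlapped widely.

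Apoa1 encodes the main protein of high-density lipoprotein, which the intestine also places on chylomicrons. Its level was 13.53 at the lowest, 14.42 at the median and 14.66 at the highest in Hnf4aKO tissue, against 14.27, 14.46 and 14.59 log2 units in Hnf4aWT tissue. The Hnf4aKO arrays spread to both sides of the narrow Hnf4aWT range, with 2 of 8 below it and 1 above. Apoa1 was the brightest member, with intensities up to 26538, and whether an upper limit of the array narrowed its range was not tested. The difference was -0.15 (SE 0.13, limma adjusted p = 0.432), with a 95% interval from -0.43 to 0.13. Its size depended on the scaling and on 1 array, at -0.36 with 75th percentile scaling (limma adjusted p = 0.0812), -0.43 with median scaling (0.0577) and -0.037 without Hnf4aKO array 7.

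Apoa4 encodes an apolipoprotein made by enterocytes during fat absorption. It had 12.05, 13.75 and 14.36 log2 units as lowest, median and highest value in Hnf4aKO tissue, against 12.54, 13.35 and 14.10 in Hnf4aWT tissue. The groups overlapped over nearly the whole range. The difference was 0.05 (SE 0.30, limma adjusted p = 0.921, 95% interval -0.58 to 0.68), which as a fold runs from 0.669 to 1.60.

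Apoc3 encodes an inhibitor of lipoprotein lipase and of remnant uptake. In RefSeq's gene order on chromosome 9 it lies between Apoa1 and Apoa4. Its level was 10.64 at the lowest, 12.80 at the median and 13.72 at the highest in Hnf4aKO tissue, against 9.94, 11.31 and 12.64 log2 units in Hnf4aWT tissue. Of 8 Hnf4aKO arrays 4 lay above the highest Hnf4aWT array, and no Hnf4aWT array reached the Hnf4aKO median. The means were 12.54 ± 1.10 in Hnf4aKO and 11.26 ± 0.87 in Hnf4aWT tissue (SD, n = 8 each). The difference was 1.28 (SE 0.45, limma adjusted p = 0.0386), and the 95% interval of the fold, not adjusted over probes, ran from 1.27 to 4.66.

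That call was close to the threshold. Apoc3 was past it in 15 of 32 alternatives, and in 6 of the 16 fits that left out 1 array. It was lost without Hnf4aWT array 1, 4, 6, 7 or 8, or without Hnf4aKO array 2, 3, 4, 6 or 8, and over all 16 such fits the difference lay between 1.09 and 1.55 (limma adjusted p from 0.00930 to 0.0793). On slide 1 alone Apoc3 differed by 1.76 (limma adjusted p = 0.0674) and on slide 2 alone by 0.80 (0.449). In none of the 32 alternatives did the sign of Apoc3 turn.

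Apoc2 encodes the activator of lipoprotein lipase. Its brighter probe had 8.28, 9.38 and 10.36 log2 units as lowest, median and highest value in Hnf4aKO tissue, against 9.33, 9.68 and 10.27 in Hnf4aWT tissue. Of the Hnf4aKO arrays 4 lay below every Hnf4aWT array and 1 above, and the difference was -0.40 (SE 0.25, limma adjusted p = 0.244), or -0.26 without Hnf4aKO array 7. The second Apoc2 probe differed by -0.60 (SE 0.32, limma adjusted p = 0.170) and was detected on 7 of 8 Hnf4aKO and all 8 Hnf4aWT arrays. It passed the threshold in 2 alternatives, with Hnf4aKO array 2 left out (-0.83, limma adjusted p = 0.0317) and on slide 2 alone (-1.03, 0.0490).

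Apoe encodes a ligand of the low-density lipoprotein receptor and is made by macrophages and hepatocytes. Its level was 10.001, 11.22 and 13.22 log2 units as lowest, median and highest value in Hnf4aKO tissue, against 9.95, 10.95 and 11.58 in Hnf4aWT tissue. Hnf4aKO array 1 alone lay above the Hnf4aWT range. The difference was 0.41 (SE 0.35, limma adjusted p = 0.403), and 0.14 without that array.

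Mttp encodes the large subunit of the triglyceride transfer protein. It had 8.41, 9.77 and 11.22 log2 units as lowest, median and highest value in Hnf4aKO tissue, against 9.59, 10.10 and 10.80 in Hnf4aWT tissue. Of the Hnf4aKO arrays 3 lay below the Hnf4aWT range and 1 above it. The difference was -0.42 (SE 0.32, limma adjusted p = 0.347, 95% interval -1.09 to 0.26). It was -0.23 without Hnf4aKO array 5 and -0.63 without Hnf4aKO array 2, past the threshold in neither.

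Creb3l3, the gene of the transcription factor named above, had 9.03, 10.01 and 10.89 log2 units as lowest, median and highest value in Hnf4aKO tissue, against 9.16, 9.66 and 10.66 in Hnf4aWT tissue. Its difference was 0.10 (SE 0.28, limma adjusted p = 0.816, 95% interval -0.48 to 0.69), with the groups overlapping over nearly the whole range.

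Fabp1 and Fabp2 encode the liver-type and intestinal fatty acid-binding proteins, and their probes gave little signal. Fabp1 was detected on 0 of 8 Hnf4aKO and 4 of 8 Hnf4aWT arrays. Its measured means were 5.18 in Hnf4aKO and 6.01 log2 units in Hnf4aWT tissue. Set against the lowest detected signal of each array it was at least 1.11-fold lower in Hnf4aKO tissue, with no test, but this bound rests on Hnf4aWT array 5. Without that array the Hnf4aWT mean was 5.74, under the 5.86 of the lowest detected signals, and no bound could be given. Its Hnf4aWT values reached 7.86, on array 5, while no Hnf4aKO value exceeded 5.52. Fabp2 was not well above background on any of the 16 arrays, with 5.07 in Hnf4aKO and 5.20 in Hnf4aWT tissue. Both genes are known for abundant expression in small intestinal enterocytes, and what these probes can detect was not tested.

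**Figure D2:**
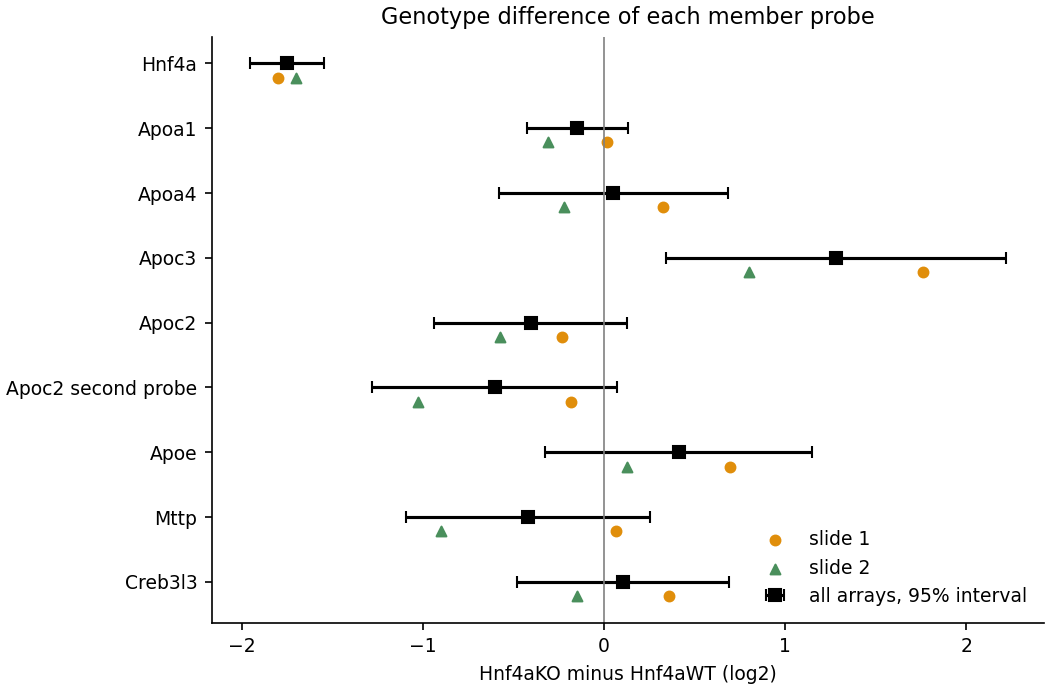
Hnf4aKO minus Hnf4aWT difference (log2) of Hnf4a and the 8 tested member probes, with squares and 95% intervals for all 16 arrays, circles for slide 1 and triangles for slide 2 alone. The interval of Hnf4a lies below 0 and that of Apoc3 above 0, before adjustment over all probes, and those of the other member probes cross it.

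The members differed more between Hnf4aKO mice than between Hnf4aWT mice. For all 8 tested probes the SD over Hnf4aKO arrays exceeded that over Hnf4aWT arrays, by 1.27 times for Apoc3 up to 3.56 times for Apoa1. Over all 13460 probes this held for 54.9%, with a median ratio of 1.05. It was not particular to the members, since the mean of the brush border markers had an SD of 1.07 in Hnf4aKO and 0.58 in Hnf4aWT arrays. For Apoa1, Hnf4aKO array 7 lay at 13.53 and the other Hnf4aKO arrays between 14.01 and 14.66. Since the members rose and fell together, the 8 probes are not separate observations. No member's difference passed the test for a change between slides, and of all probes 0 did (limma interaction, 425 at an unadjusted p under 0.05, so 0% called).

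To see how the members varied beside the genotype, each level was taken as a deviation from the mean of its genotype and slide. Among Apoa1, Apoa4, Apoc2, Apoc3, Mttp and Creb3l3 the 15 pairwise Pearson correlations over 16 arrays lay between 0.56 and 0.95, with a median of 0.81. Apoc3 and Apoa4 were the closest pair. Apoe ran the other way, with correlations between -0.61 and -0.46 to the other 6. For Creb3l3 and Apoe this depended on few arrays. In Hnf4aKO arrays alone rho was -0.19, and r turned from -0.35 to 0.43 without the 2 arrays farthest from the median of Creb3l3. In Hnf4aWT arrays alone rho was -0.33, and r stayed negative, at -0.14 against -0.27. The pairs of Apoe with the other members were not checked in this way. These are descriptions, and the probes compared on an array share that mouse's tissue piece and RNA.

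**Figure D3:**
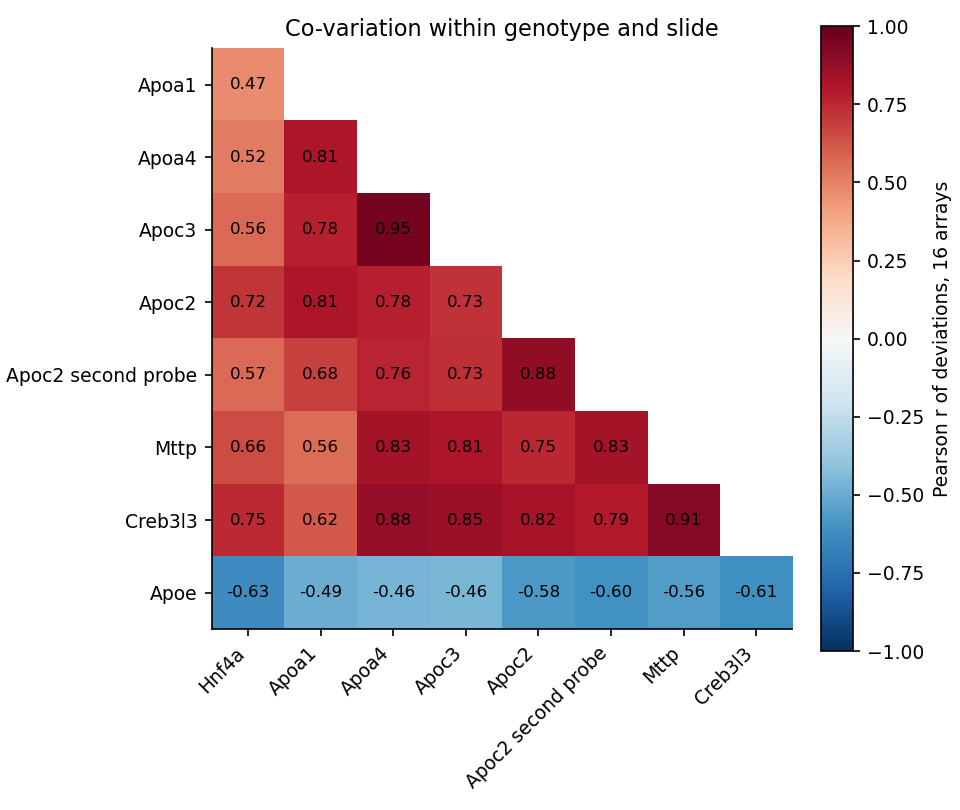
Pearson correlation of deviations from genotype-by-slide means between Hnf4a and member probes over 16 arrays, coloured from -1 in blue to 1 in red. All members but Apoe correlate positively with each other, and Apoe correlates negatively with all of them.

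Within each genotype, Creb3l3 was set against the other members with exact permutation tests, adjusted over a family of 14 correlations. In the 8 Hnf4aKO arrays Creb3l3 correlated with Apoa1, Apoa4, Apoc2, Apoc3 and Mttp at r from 0.76 to 0.96 and rho from 0.86 to 0.90, and 5 of 5 passed (exact permutation, highest adjusted p = 0.0205). In the 8 Hnf4aWT arrays r lay between 0.47 and 0.90 and rho between 0.45 and 0.90, and 3 of 5 passed by r (exact permutation, adjusted p from 0.00677 to 0.267). By rho 2 of 5 passed, since Mttp was at 0.76 (exact permutation, adjusted p = 0.0643). With deviations from slide means, r lay between 0.70 and 0.97 in Hnf4aKO and between 0.49 and 0.91 in Hnf4aWT arrays, where 5 of 5 and 2 of 5 passed. Without the 2 arrays farthest from the median of Creb3l3, r lay between 0.87 and 0.96 in Hnf4aKO arrays and 4 of 5 passed. In Hnf4aWT arrays, with 6 left, none then passed. There Apoa4 stayed at 0.87, against 0.90 with all arrays (exact permutation, adjusted p = 0.0681), and Apoa1 at 0.43, against 0.47. Apoc3 was at 0.68, against 0.81, and Mttp at 0.56, against 0.79, while Apoc2 turned to -0.38, so the Apoc2 relation rests on those arrays. The counts of 5 leave out Apoe, which was in the family too. Creb3l3 and Apoe did not pass, at r = -0.35 in Hnf4aKO and -0.27 in Hnf4aWT arrays (exact permutation, adjusted p = 0.471 and 0.520). How many other probes of the array would pass against Creb3l3 was not counted. Creb3l3 also correlated at 0.83 with the mean of the enterocyte brush border markers described below, in the deviations over 16 arrays. Whether the genotypes differ in these correlations was not tested.

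The genes most like the members in these deviations were Gdpd2, at a correlation of 0.95 with the mean deviation of the 7 genes over 16 arrays, Khk (0.94), Tm4sf5 (0.94), Slc6a4 (0.93) and Galm (0.93). Khk encodes the fructose-phosphorylating ketohexokinase, Slc6a4 the serotonin transporter and Galm an aldose mutarotase. Galm differed by -0.97 between genotypes (SE 0.17, limma adjusted p = 0.000513) and Tm4sf5 by -0.94 (SE 0.24, 0.00747), while Gdpd2 (0.28), Khk (-0.80) and Slc6a4 (-0.86) did not pass.

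Levels of enterocyte brush border markers moved with the members other than Apoe. The 10 brush border markers, among them the disaccharidase gene Sis and the peptidase gene Anpep, averaged 9.56 ± 1.07 log2 units in Hnf4aKO and 9.91 ± 0.58 in Hnf4aWT tissue (SD, n = 8 each). None of the 10 passed the genotype test in either direction (limma, lowest adjusted p 0.0897 for Enpep). Each was detected on at least 7 of 8 arrays of either genotype. Their summed level ran from 9283 to 43035 in Hnf4aKO and from 9628 to 34487 in Hnf4aWT tissue. In the deviations their mean correlated with the member probes other than Apoe at 0.78 to 0.90 and with Apoe at -0.64. For the mean of the ileal enterocyte markers the members other than Apoe gave 0.41 to 0.66. For proximal enterocyte markers they gave 0.07 to 0.57, and for pan-epithelial markers 0.08 to 0.41. Of 6 ileal markers tested 1 fell, Amn at -1.28 (limma adjusted p = 0.0213). Of 4 proximal markers tested 1 fell, Dmbt1 at -0.52 (limma adjusted p = 0.0183). In whole tissue, fewer enterocytes and less RNA per enterocyte cannot be told apart.

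Markers of several other cell types moved with Apoe. Of 15 macrophage and dendritic cell markers 12 were higher and 0 lower in Hnf4aKO tissue, among them Mrc1 at 1.25 (SE 0.26, limma adjusted p = 0.00173) and Lyz2 at 1.16 (SE 0.27, 0.00443). Their summed level ran from 18256 to 53601 in Hnf4aKO and from 11713 to 19531 in Hnf4aWT tissue. In the deviations their mean correlated with Apoe at 0.87, and those of the adipocyte and fibroblast markers at 0.79 each. The mean of the hepatocyte list gave 0.85, but it holds only Ttr, Cyp2e1, Hp and Trf. Of these Cyp2e1 and Hp varied most between Hnf4aKO arrays, with SDs of 2.71 and 1.77. In Hnf4aKO arrays Apoe correlated with the macrophage mean at r = 0.93 and rho = 0.69 (exact permutation, adjusted p = 0.0137 and 0.0972), but at 0.32 without the 2 farthest arrays, so the relation rests on those. In Hnf4aWT arrays r was 0.69 and rho 0.69 (exact permutation, adjusted p = 0.0986 and 0.0972), and r was 0.46 without the 2 farthest arrays. With deviations from slide means r was 0.96 in Hnf4aKO and 0.71 in Hnf4aWT arrays. The 9 adipocyte markers tested had 0 past the threshold, with a summed level from 541 to 46089 in Hnf4aKO and from 550 to 15169 in Hnf4aWT tissue. Of 4 hepatocyte markers tested 1 fell and 1 rose: Ttr, with 0 of 8 Hnf4aKO and 8 of 8 Hnf4aWT arrays detected, was at least 6.85-fold lower in Hnf4aKO tissue (limma adjusted p = 1.23e-08), and Cyp2e1 differed by 3.44 (0.0154). Their summed level ran from 845 to 32055 in Hnf4aKO and from 846 to 4575 in Hnf4aWT tissue. The hepatocyte genes Alb, Fga, Fgb, Tat and Apoh were detected on 0 arrays, so the mean of this list is not read as a measure of hepatocytes.

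Other marker lists also differed between the genotypes. Of 8 endothelial markers 5 rose, with Pecam1 at 1.07 (limma adjusted p = 0.000181), and of 7 fibroblast markers 4 rose, with Lum at 0.86 (0.0360). Summed endothelial levels ran from 2706 to 4385 in Hnf4aKO and from 1670 to 2966 in Hnf4aWT tissue, and summed fibroblast levels from 13989 to 31767 in Hnf4aKO and from 11090 to 20038 in Hnf4aWT tissue. Of 7 Paneth and goblet cell markers 4 rose, with the Paneth cell gene Ang4 at 1.20 (limma adjusted p = 0.0172), and the summed level ran from 74590 to 96053 in Hnf4aKO and from 47363 to 78018 in Hnf4aWT tissue. Of 7 crypt base and proliferation markers 3 fell, with the crypt base gene Olfm4 at -2.31 (limma adjusted p = 8.45e-06), and the summed level ran from 5649 to 9651 in Hnf4aKO and from 9567 to 11065 in Hnf4aWT tissue. In the deviations Apoe correlated with the endothelial mean at 0.70, the crypt mean at -0.62 and the Paneth and goblet mean at -0.35. The part of any cell type in the members' differences was not tested.

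**Figure D4:**
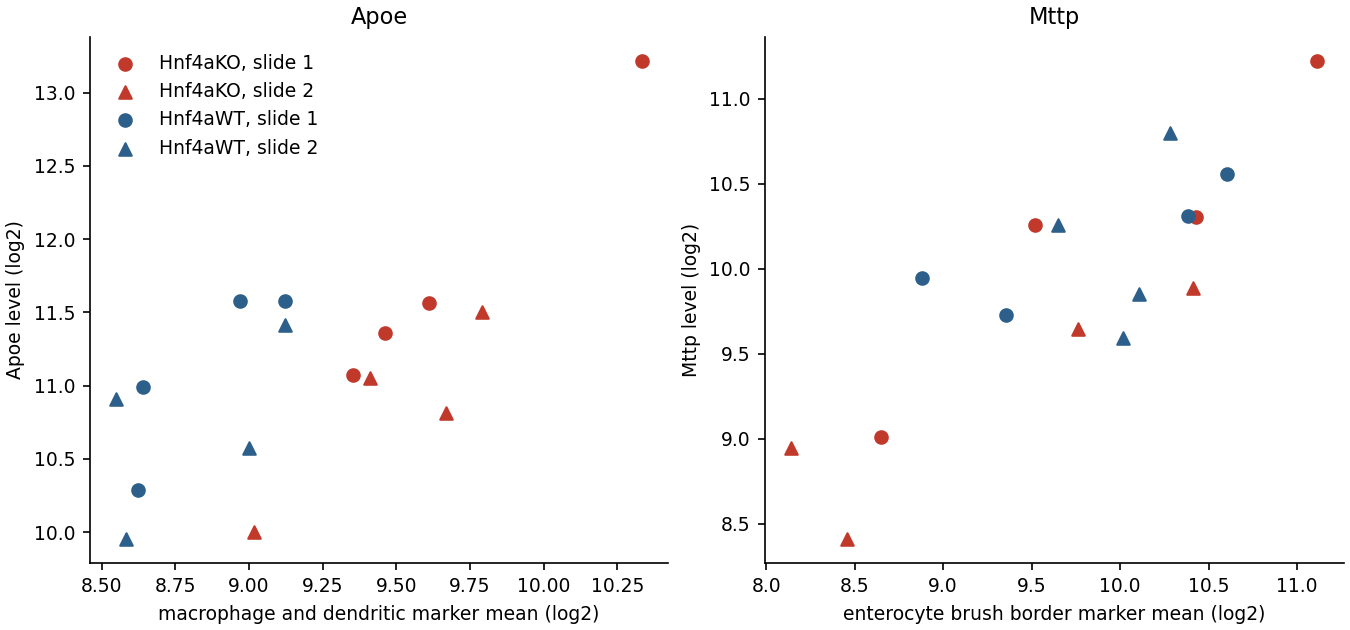
Left, Apoe level against the mean of 15 macrophage and dendritic cell markers. Right, Mttp level against the mean of 10 brush border markers (log2, 1 point an array, Hnf4aKO red and Hnf4aWT blue, axes not from 0). Hnf4aKO array 1 has the highest Apoe and macrophage values. Mttp is lowest on Hnf4aKO arrays 1, 5 and 7, which also have the lowest brush border means. Among Hnf4aWT arrays, array 1 has the lowest brush border mean and array 8 the lowest Mttp.

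Differences were also fitted with the brush border, adipocyte or macrophage mean as a covariate, in alternatives added after the values had been seen. With the brush border mean, 28.1% of all probes passed and Apoc3 was the 1 member called, with a difference of 1.64 (limma adjusted p = 4.19e-05). With the adipocyte mean Apoc3 differed by 1.61 (limma adjusted p = 0.0188), and with the macrophage mean by 2.26, past the threshold no longer (0.0552). Apoe differed by 0.29 with the brush border mean (limma adjusted p = 0.564), by -0.09 with the adipocyte mean (0.850) and by -1.13 with the macrophage mean (0.0427), so its direction depended on the covariate. The macrophage mean itself differs between the genotypes, and only part of the genotype difference can be parted from it.

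Apoc3 was then set against Apoa4, its neighbour and closest partner, within each array. This contrast was noticed in the values, so it is given as a description with no test. The absolute size of a difference between 2 probes has no meaning, and only its change between genotypes is read. Apoc3 minus Apoa4 ran from -1.41 to -0.37 with a median of -0.96 in Hnf4aKO arrays, against -3.30 to -1.46 with a median of -2.05 in Hnf4aWT arrays. All 8 Hnf4aKO arrays lay above all 8 Hnf4aWT arrays. The means were -0.95 ± 0.41 in Hnf4aKO and -2.18 ± 0.55 in Hnf4aWT tissue (SD, n = 8 each), a difference of 1.23, with 1.43 on slide 1 and 1.02 on slide 2. How often other probes or probe pairs of the array part the genotypes completely was not counted.

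Apoc3 was set against each of the other 6 tested members in this way, and Apoa4 was the one whose groups did not overlap. Against Mttp, Creb3l3 and Apoc2, 7 of 8 Hnf4aKO arrays lay above all Hnf4aWT arrays, with differences of 1.70, 1.18 and 1.68. Against Apoa1 there were 4 such arrays and against Apoe 3, with differences of 1.43 and 0.87.

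**Figure D5:**
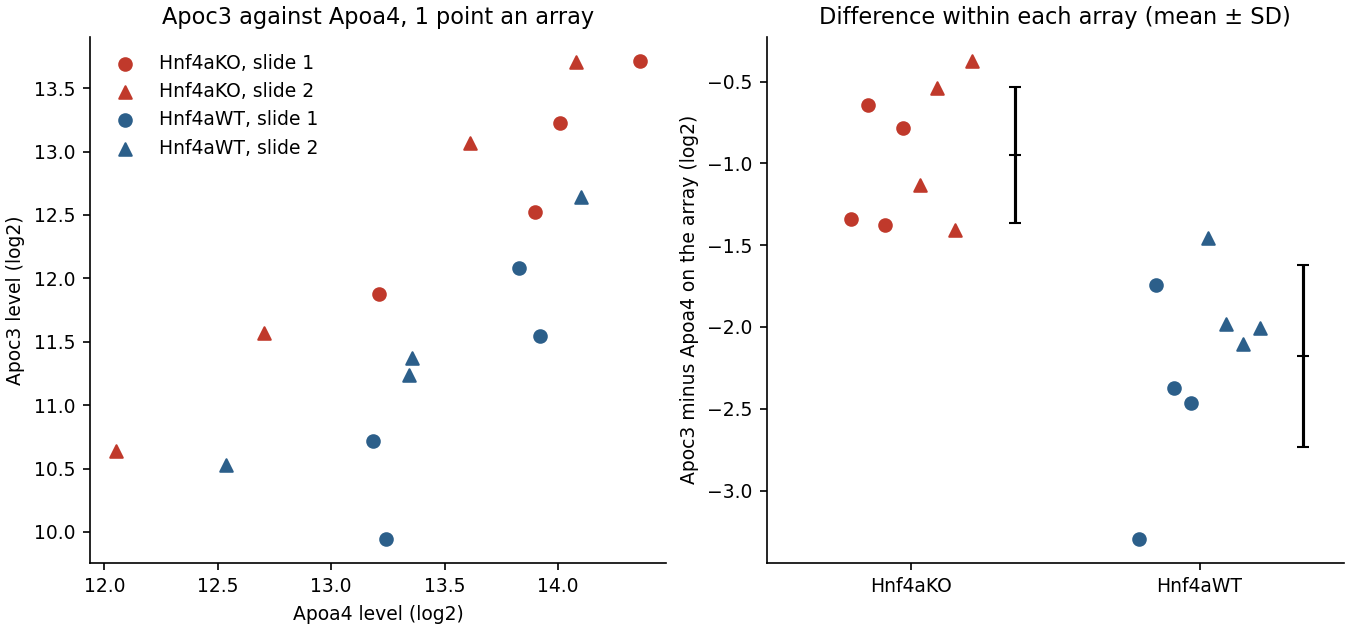
Left, Apoc3 level against Apoa4 level (log2), 1 point an array, Hnf4aKO red and Hnf4aWT blue, circles slide 1, triangles slide 2. Right, Apoc3 minus Apoa4 on each array with mean ± SD, where every Hnf4aKO array lies above every Hnf4aWT array (axes not from 0). The pair was chosen after the values were seen.

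Among other genes of the pathway, those of fat resynthesis and of particle assembly held lower and higher members. Of 22 genes of fat uptake and resynthesis tested, 2 fell and 1 rose, with a median difference of -0.05 against -0.02 over all 10143 genes. Mogat2, which makes diacylglycerol from the monoacylglycerol of digested fat, averaged 9.49 ± 0.84 in Hnf4aKO and 10.65 ± 0.48 in Hnf4aWT tissue (SD, n = 8 each; difference -1.16, limma adjusted p = 0.00934). Its other probe differed by -1.17. Dgat1, which makes triglyceride, averaged 9.38 ± 0.59 in Hnf4aKO and 10.28 ± 0.31 in Hnf4aWT tissue (difference -0.90, limma adjusted p = 0.00525). Acsl3, an acyl-CoA synthetase gene, differed by 0.52 (0.0184), and its other probe by 0.24 without passing.

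Of 21 genes of lipoprotein assembly, editing and vesicle export, 2 fell and 2 rose, with a median of -0.14. Tm6sf2, which takes part in lipidation of the particle, differed by -0.76 (SE 0.22, limma adjusted p = 0.0132), and Surf4, a cargo receptor for lipoprotein export, by -0.41 (SE 0.11, 0.00872). Apobec1, the enzyme that edits Apob mRNA, averaged 10.87 ± 0.21 in Hnf4aKO and 10.22 ± 0.30 in Hnf4aWT tissue (SD, n = 8 each; difference 0.64, limma adjusted p = 0.00133). Sar1a, a GTPase of the vesicle coat, differed by 0.30 (0.0198). Its paralog Sar1b, known for chylomicron export, differed by -0.20 and did not pass (0.162).

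Of 4 other apolipoprotein genes tested, 1 rose and none fell, with a median of 0.76. It was Apol9b, at 7.94 ± 0.52 in Hnf4aKO and 5.88 ± 0.39 log2 units in Hnf4aWT tissue (SD, n = 8 each; difference 2.06, limma adjusted p = 3.48e-06), detected on 4 of 8 Hnf4aWT arrays. Of 6 other small lipid-binding proteins 1 fell and 1 rose, with a median of -0.07. The one that fell was the acyl-CoA-binding protein gene Dbi at -0.27 (limma adjusted p = 0.0206), with its other probes at 0.309 and -0.345 and not past the threshold.

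Of 14 genes of lipases, lipoprotein receptors and plasma remodelling 1 fell and 1 rose, with a median of 0.18. The one that rose was Vldlr, a lipoprotein receptor gene, at 0.75 (SE 0.20, limma adjusted p = 0.0104).

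Of 28 regulators tested 5 fell and 3 rose, with a median of -0.11. Nr5a2, a nuclear receptor gene, differed by -1.10 (limma adjusted p = 0.00238) and was detected on 3 of 8 Hnf4aKO and 7 of 8 Hnf4aWT arrays. Mlxipl, the gene of the carbohydrate-responsive factor ChREBP, differed by -1.09 (0.00505), and the coactivator genes Ppargc1a and Ppargc1b by -0.80 (0.0194) and -0.72 (0.00109). Cidec, a lipid droplet protein gene also abundant in adipocytes, differed by 1.05 (limma adjusted p = 0.0310), reaching 12.45 in Hnf4aKO and 9.45 in Hnf4aWT tissue. Read against 17.0% lower and 12.4% higher over all probes, none of these lists is set apart by its counts alone.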

How the data were processed

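RNA of small intestine from 8 Hnf4aKO and 8 Hnf4aWT mice was labelled as biotinylated cRNA, per the labels' protocols. Replicates were taken as separate animals, since the design speaks of mice. The deposited intensity of each probe is not normalized, and a detection p-value stands beside it, per the file headers. The deposited series table holds intensity on a linear scale with no method named, keeps each array's rank order, and served as an alternative. Neither scanner software nor genome build is given in the sources used here.

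Probe intensities had their background corrected with limma 3.58.1 in R 4.3.3 (nec, offset 16), were quantile normalized and were taken to log2, which shrinks differences of dim probes. Probes with a detection p under 0.05 on at least 6 of 16 arrays were kept, 13460 in all. Genotypes were compared with limma (lmFit, eBayes), adjusted by Benjamini-Hochberg over all kept probes. Genes with several probes are represented by the brightest. Array symbols were matched to RefSeq's GRCm38.p6 table: 20733 were current, 3903 were updated through a unique synonym and 1061 were kept.

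Named are all members, Hnf4a, up to 5 called genes of each pathway list and up to 2 of the marker lists discussed, and the 5 genes most like the members. Some genes picked this way are not reported here. Enpep and Sar1b, the marker genes given as examples, as parts of a mean or as not detected, and the covariates and the Apoc3 minus Apoa4 contrast were chosen after the values were seen. The members and lists were chosen with earlier results of these data known.

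On simulated intensities of this comparison, with 13462 probes in the fit, 66 of 67 changes of 2 log2 units, 51 of 67 of 1 and 25 of 66 of 0.5 were recovered, and 4.05% of calls fell on unchanged probes. No other probes were changed there, and noise was drawn for each probe apart. In the data 29.4% of probes were called and probes varied together, so these shares may differ in the real comparison. Same-numbered arrays correlated between -0.23 and 0.38 in their deviations, and nothing in the labels pairs them, so the numbers were not used as pairs. Correlations between arrays lay between 0.906 and 0.988, and no array was counted as a duplicate. The number of arrays limits the precision. Alternatives covered the background correction, scaling, filter, slide, replicate block, array weights, deposited table and each array left out.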

Additional observations from a re-analysis of the deposited data

Results flagged for a closer look

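The second Apoc2 probe read 8.37 log2 units on Hnf4aWT array 3, apart from the other Hnf4aWT arrays, of which the next highest was 7.67. It was the 1 value set apart by a gap test among 16 groups of 8 arrays, a test that chance passes for about 1 group in 20. The brighter Apoc2 probe was also highest on that array among the Hnf4aWT arrays, at 10.27, without standing apart.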

How the results depend on the processing

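The count of members called higher, 1 (Apoc3), was 0 with 75th percentile scaling, median scaling, no filter on dim probes, slide 1 only, slide 2 only, array weights and the macrophage covariate, and between 0 and 1 when single arrays were left out. The limma adjusted p of Apoc3 was then 0.0643, 0.0725, 0.0717, 0.0674, 0.449, 0.0577 and 0.0552, and the cause was not tested. The slide fits hold fewer samples and the unfiltered fit more probes. The count of members called lower was 0, and 1 with the macrophage covariate, where Apoe passed. Over all probes 2292 were called lower and 1669 higher. Slide 1 alone called 505 and 439, slide 2 alone 876 and 718, and the macrophage covariate 341 and 404. With median scaling, which shifted the median difference of all probes to -0.11, 1099 were called higher. With the replicate block 2512 were called lower and 1938 higher, Apoc3 kept its call (limma adjusted p = 0.0414), and no member's call changed. Of 8 Hnf4aKO arrays 4 correlated best with the Hnf4aWT array of their own number, and 3 of 8 once slide means were also removed. This is a hint from the data and not from the design, since nothing in the labels pairs the arrays.

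Differences that did not pass the test changed sign as follows. Apoa1 was 0.015 on slide 1 and Mttp 0.063. Apoa4 was -0.13 with 75th percentile scaling, -0.20 with median scaling, -0.22 on slide 2, -0.067 with array weights, and from -0.078 to 0.26 when single arrays were left out. Creb3l3 was -0.044 with median scaling, -0.15 on slide 2, and from -0.044 to 0.23 when single arrays were left out. With the macrophage covariate Apoc2 was 0.036, Mttp 0.25 and Apoe -1.13, and with the adipocyte covariate Apoe was -0.089. Without the 2 farthest arrays, the correlation of Creb3l3 with Apoe in Hnf4aKO arrays was 0.43, against -0.35, and that with Apoc2 in Hnf4aWT arrays -0.38, against 0.60. The Apoc3 minus Apoa4 contrast stayed between 1.02 and 1.43. Of the list counts, 148 of 1280 moved by over 1.5 times. The family of 20 correlations that had been planned came to 14, since Apob had no probe and Fabp1 and Fabp2 were not kept. Dim probes such as those of Fabp1 and Fabp2 allow no more than a bound.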
